A study of Mus musculus with 12 samples.

Results

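The 45 genes described here build, crosslink or degrade the extracellular matrix, mark the fibroblasts and contractile cells that make it, or encode the growth factors and receptors that act on those cells. They were chosen by symbol from a list fixed by name, and all 45 of them were found among the 24062 genes of the deposited count table. The list was drawn up with earlier results of these data known, so counts over it are a description. RNA-seq was measured in 12 libraries from whole kidneys of adult Pkd1 mice. Each library has its own sample label, and nothing beyond that says that each came from a different mouse. All mice had been given tamoxifen, were 6 to 8 weeks old at treatment, and had a kidney taken 4 weeks after surgery. The groups were UNx CrePlus (Cre present, 1 kidney removed by unilateral nephrectomy), UNx CreMinus (no Cre, 1 kidney removed), sham CrePlus (Cre present, sham nephrectomy, 2 kidneys kept) and sham CreMinus (no Cre, sham nephrectomy), with 3 libraries each. The promoter that drives Cre, the deleted part of Pkd1 and the strain are not named in the labels, and the title of sham CrePlus replicate 1 holds a group name where the others hold a number of an animal.

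The extracellular matrix is the protein scaffold between cells. In the kidney it forms the basement membranes under tubules and around glomerular capillaries, built on type IV collagen and laminins, and a sparse interstitium in which fibroblasts and pericytes lie. When a kidney scars, fibroblasts activated by TGF-beta and PDGF take on contractile fibres and deposit fibrillar collagens and fibronectin, which lysyl oxidases crosslink and metalloproteinases trim. Interstitial fibrosis is a known feature of advanced polycystic kidney disease, and Pkd1 encodes polycystin-1, the protein altered in most patients with that disease.

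Library totals were 18914300 to 22480895 counts in 8 libraries and 41699032 to 42785476 counts in the other 4, all 3 of UNx CrePlus and replicate 1 of UNx CreMinus. Levels are given as CPM, read counts relative to the library total after TMM scaling. Xist and Y-linked genes marked 5 libraries as male: UNx CrePlus replicates 1 and 2, and 1 library in each other group (UNx CreMinus replicate 1, sham CrePlus replicate 3 and sham CreMinus replicate 3). Pkd1 was at 45.5, 39.6 and 45.1 CPM in UNx CrePlus libraries and 49.4, 49.3 and 71.6 CPM in UNx CreMinus libraries, with no overlap. In sham CrePlus libraries it was at 64.1, 46.05 and 45.9 CPM, against 76.8, 60.3 and 57.8 CPM in sham CreMinus libraries, which overlapped. Every library held 12170 to 15010 CPM of 8 proximal tubule markers in sum. The kit does not mark the strand, so reads of Col4a1 and Col4a2, which overlap at their starts, and of Col18a1, Fbn1, Tagln, Tgfb3 and Timp3, which overlap a coding gene on the other strand, could in part belong to the neighbour.

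All 45 genes passed the filter on low counts. Per kilobase of their longest coding transcript, the highest mean levels over the 12 libraries were 526 CPM for Timp3, a secreted metalloproteinase inhibitor held in the matrix, 148 CPM for Mgp, an inhibitor of calcification, 98.4 CPM for Sparc, a collagen-binding glycoprotein, and 77.5 CPM for the proteoglycan Bgn. The lowest were 0.464 CPM for the proteoglycan Lum and 0.614 CPM for Postn, a matrix protein of scars. Most of the genes varied together across libraries: over the 990 pairs of members, the median Pearson correlation of log2 CPM over 12 libraries was 0.73, and 34 pairs were negative. This is a description, since all pairs share the same 12 libraries. The members least like the mean of the others were Timp3 (r = -0.04), Tgfb2 (0.24), Lum (0.40) and Col8a1 (0.55). Timp3 stayed within a ratio of 1.48 between its highest and lowest library, while Col8a1 spanned a ratio of 9.72.

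Some genes that lie or work side by side kept nearly fixed proportions, and others did not. Col4a1 and Col4a2, which encode the chains of the common type IV collagen and start head to head on chromosome 8, had a correlation of 0.995 and a CPM ratio between 1.46 and 1.67 in every library. Col6a1 and Col6a2, neighbours on chromosome 10 that encode chains of beaded-filament type VI collagen, had a correlation of 0.977 and a ratio between 1.47 and 2.01. Col1a1 and Col1a2, the chains of type I collagen on chromosomes 11 and 6, had a correlation of 0.969, and their ratio ran from 0.301 to 0.671. Col3a1 and Col5a2, neighbours on chromosome 1, had a correlation of 0.714 and a ratio between 0.868 and 3.71. Dcn and Lum, neighbours on chromosome 10, had a correlation of 0.524, and their ratio ran from 13.7 to 65.9. Lum had only 8 to 64 reads in a library, and 12 in UNx CreMinus replicate 1, where the ratio was 65.9. Noise of such low counts may widen the range of this pair and lower its correlation.

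The mean over the 45 genes of the log2 CPM difference from the 12-library mean summarises each library. It was 0.84, 0.49 and -0.02 in UNx CrePlus replicates 1 to 3, and -0.51, 0.06 and 0.24 in UNx CreMinus replicates 1 to 3. In sham CrePlus libraries it was 0.47, -0.55 and -0.73, against 0.27, -0.17 and -0.39 in sham CreMinus libraries. The 2 male UNx CrePlus libraries and the female sham CrePlus replicate 1 were thus the highest, and the groups overlapped. UNx CrePlus replicate 1 was the highest of the 12 libraries for 30 of the 45 genes, against 7.99% of all genes, and sham CrePlus replicate 3 was the lowest for 20, against 12.8% of all genes. Without Timp3, the other 44 genes summed to 4024, 3604 and 2243 CPM in UNx CrePlus libraries and 1841, 2447 and 2711 CPM in UNx CreMinus libraries. In bulk kidney, fewer cells of a type and less RNA per cell cannot be told apart.

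**Figure D1:**
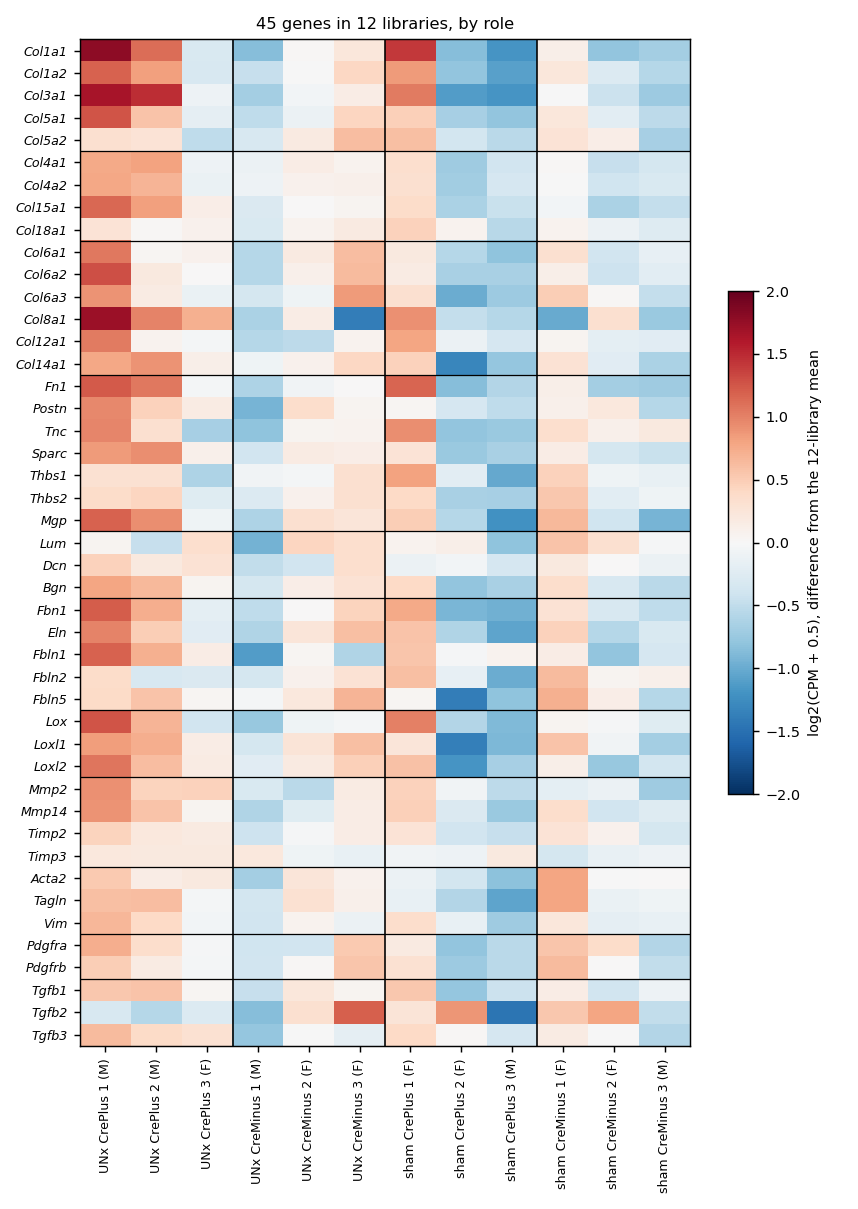
Each row is 1 of the 45 genes, grouped by role with black lines between roles, and each column is 1 library (M male, F female). Colour is the difference of log2(CPM + 0.5) from the gene's mean over the 12 libraries. UNx CrePlus replicates 1 and 2 and sham CrePlus replicate 1 are red in most rows, sham CrePlus replicates 2 and 3 are blue in most rows, and the row of Timp3 is nearly white.

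Between UNx CrePlus and UNx CreMinus kidneys, 40 of the 45 genes had a higher mean and 5 a lower one. Their median log2 fold change was 0.49, against -0.01 over all 14970 genes tested. None of the 45 passed an adjusted p under 0.05 in edgeR's quasi-likelihood test, with 0.31 as the lowest adjusted p (Fbln1), and 0.14% of all genes passed. At an unadjusted p under 0.05, 10 of the 45 genes were higher and 0 lower, against 6.15% of all genes that were higher. Leaving out UNx CrePlus replicate 1 gave 2 such genes and leaving out its replicate 3 gave 16. The count was 3 when UNx CreMinus replicate 1 was left out, 6 for its replicate 2, 5 for sham CreMinus replicate 2 and 6 for sham CreMinus replicate 3. DESeq2 called 1 of the 45, Fbln1, and 1.21% of the genes to which it gave an adjusted p. In 6 of the 45 genes every UNx CrePlus library was above every UNx CreMinus library (Col15a1, Col8a1, Fbln1, Mmp2, Tgfb3 and Timp2), against 8.33% of all genes, and in 0 of them every one was below, against 7.47% of all genes.

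Among the fibrillar collagens, which form the tensile fibres of the interstitium, 4 of 5 had a higher mean in UNx CrePlus kidneys and none passed the adjusted threshold. Col3a1, the chain of type III collagen, was at 201, 178 and 59.5 CPM in UNx CrePlus libraries and 39.8, 61.5 and 70.9 CPM in UNx CreMinus libraries. Col1a1 was at 108, 68.05 and 24.9 CPM in UNx CrePlus libraries, against 16.9, 31.3 and 36.5 CPM in UNx CreMinus libraries. Col1a2 was at 161, 126 and 56.8 CPM in UNx CrePlus libraries and 51.3, 70.3 and 94.9 CPM in UNx CreMinus libraries. In all 3 genes UNx CrePlus replicates 1 and 2 stood above every UNx CreMinus library, and replicate 3 lay within their range. The log2 fold changes were 1.35 ± 0.60 (SE) for Col3a1, 1.25 ± 0.69 (SE) for Col1a1 and 0.67 ± 0.51 (SE) for Col1a2, with adjusted p of 0.466, 0.557 and 0.687 in edgeR. Of the type V chains, which set fibril diameter, Col5a1 had 0.70 ± 0.43 (SE) and Col5a2 -0.14 ± 0.37 (SE) on the same scale.

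The DNA just before the start of 3 of these collagen genes and of Vim is shown so that their letters can be set side by side. They were chosen by role and not by how they varied. They are the fibrillar collagen and cytoskeletal genes whose window in the RefSeq table holds enough bases before the gene. Bases are from RefSeq on GRCm38.p6, 5′ to 3′ on the plus strand, and end at the last base before the gene. Capitals mark the letters CCAAT, the TATA box spelled TATAAA, the GC box spelled GGGCGG and the SMAD element spelled CAGACA, each searched on both strands, with no overlap between matches.
Col1a2 (chr6:4505368-4505617): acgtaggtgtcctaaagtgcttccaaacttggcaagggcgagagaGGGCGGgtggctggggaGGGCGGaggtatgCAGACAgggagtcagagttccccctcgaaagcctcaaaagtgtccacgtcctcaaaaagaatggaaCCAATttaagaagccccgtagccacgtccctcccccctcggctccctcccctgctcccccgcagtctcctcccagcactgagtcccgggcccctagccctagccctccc
Col3a1 (chr1:45311288-45311537): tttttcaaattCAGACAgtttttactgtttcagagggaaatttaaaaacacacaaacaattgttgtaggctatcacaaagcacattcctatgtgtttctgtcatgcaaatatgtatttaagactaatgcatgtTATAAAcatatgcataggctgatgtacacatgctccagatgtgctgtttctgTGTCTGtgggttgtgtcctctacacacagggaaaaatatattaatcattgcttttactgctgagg
Col5a1 (chr2:27886175-27886380): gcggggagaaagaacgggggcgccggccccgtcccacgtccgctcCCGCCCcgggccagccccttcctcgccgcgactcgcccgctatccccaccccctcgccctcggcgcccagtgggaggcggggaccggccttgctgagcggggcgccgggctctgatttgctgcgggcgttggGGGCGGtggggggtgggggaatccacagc
Vim (chr2:13574061-13574310): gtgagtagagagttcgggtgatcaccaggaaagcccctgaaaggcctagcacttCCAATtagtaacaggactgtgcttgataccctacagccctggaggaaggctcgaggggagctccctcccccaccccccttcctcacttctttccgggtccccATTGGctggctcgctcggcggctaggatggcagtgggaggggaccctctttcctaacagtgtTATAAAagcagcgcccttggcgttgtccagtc
Col1a2 held CCAAT 109 to 105 bases before its start, 2 GC boxes and 1 SMAD element. Col3a1 held 2 SMAD elements, with TATAAA 117 to 112 bases before its start, and Col5a1 held 2 GC boxes. Vim held TATAAA 32 to 27 bases before its start and 2 CCAAT boxes. Motifs were also counted over 250 bases before each start in the RefSeq table, where 34 windows belonged to 28 of the members. A gene can have several starts, and 15 of the 34 windows reach past the first base of the gene, such as that of Col5a1 by 44 bases, which hold its 1 SMAD element. Windows of the same gene can overlap, as those of Fbln1 and of Tnc do, so the same element can be counted more than once. The SMAD element was in 13 of 34 and in 17.1% of all 32851 windows. The GC box was in 18 of 34 against 32.7%, CCAAT in 10 of 34 against 33.8%, and TATAAA in 7 of 34 against 12.4%. These are matches of letters and not sites of binding.

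All 4 basement membrane collagens had a higher mean in UNx CrePlus kidneys. Col15a1, a collagen that ties basement membranes to the stroma, was at 106, 84.3 and 52.6 CPM in UNx CrePlus libraries and 38.9, 48.1 and 49.4 CPM in UNx CreMinus libraries. The groups did not overlap, the log2 fold change was 0.84 ± 0.30 (SE) and the adjusted p was 0.388 in edgeR. Col4a1 was at 552, 568 and 302 CPM in UNx CrePlus libraries, against 300.5, 362 and 340.4 CPM in UNx CreMinus libraries, and its log2 fold change was 0.51 ± 0.29 (SE). UNx CrePlus replicate 3 was near the lowest UNx CreMinus library for Col4a1. Col18a1, the source of endostatin, had a log2 fold change of 0.13 ± 0.22 (SE).

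All 6 of the other collagens had a higher mean in UNx CrePlus kidneys as well. Col8a1, a short-chain collagen of vessel walls, had the largest log2 fold change of the 45 genes, 1.77 ± 0.55 (SE), with an adjusted p of 0.348 in edgeR. It was at 29.6, 17.8 and 14.5 CPM in UNx CrePlus libraries and 5.40, 9.70 and 3.04 CPM in UNx CreMinus libraries, and here the female replicate 3 was also above all 3 UNx CreMinus libraries. Col12a1, which binds the surface of type I fibrils, was at 27.2, 13.8 and 12.6 CPM in UNx CrePlus libraries, against 8.62, 8.88 and 13.7 CPM in UNx CreMinus libraries. Col14a1, a related fibril-associated collagen, was at 67.3, 73.1 and 42.4 CPM in UNx CrePlus libraries and 36.8, 41.4 and 52.3 CPM in UNx CreMinus libraries. Both overlapped between the groups, with log2 fold changes of 0.79 ± 0.35 (SE) for Col12a1 and 0.49 ± 0.41 (SE) for Col14a1. The 3 type VI chains had log2 fold changes of 0.33 for Col6a1, 0.50 for Col6a2 and 0.15 for Col6a3.

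Of the 7 glycoproteins, 6 had a higher mean in UNx CrePlus kidneys. Sparc was at 383, 404 and 227 CPM in UNx CrePlus libraries and 162, 237 and 233 CPM in UNx CreMinus libraries. Fn1, fibronectin, to which cells attach through integrins, was at 128, 113 and 52.95 CPM in UNx CrePlus libraries, against 35.2, 51.5 and 54.7 CPM in UNx CreMinus libraries. In both genes replicate 3 of UNx CrePlus fell within the UNx CreMinus range while replicates 1 and 2 were far above it. The log2 fold changes were 0.68 ± 0.31 (SE) for Sparc and 1.06 ± 0.51 (SE) for Fn1, and the adjusted p was 0.466 and 0.497 in edgeR. Postn, Mgp and the adhesion-modulating tenascin gene Tnc had log2 fold changes of 0.81, 0.73 and 0.59, whereas the thrombospondins, which activate latent TGF-beta or limit vessel growth, had -0.019 for Thbs1 and 0.16 for Thbs2.

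The small proteoglycans bind collagen fibrils and growth factors. Dcn, decorin, was at 39.7, 33 and 35.2 CPM in UNx CrePlus libraries and 20.3, 22.03 and 36.5 CPM in UNx CreMinus libraries. Bgn, biglycan, was at 305, 277 and 184 CPM in UNx CrePlus libraries, against 138, 194 and 215 CPM in UNx CreMinus libraries. Both overlapped, with log2 fold changes of 0.45 ± 0.20 (SE) for Dcn and 0.49 ± 0.35 (SE) for Bgn, and Lum had -0.027.

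Elastic fibres consist of elastin laid on fibrillin microfibrils with the help of fibulins. Fbln1, fibulin-1, was at 19.7, 14.1 and 9.36 CPM in UNx CrePlus libraries and 3.60, 8.65 and 5.37 CPM in UNx CreMinus libraries, without overlap. Its log2 fold change was 1.30 ± 0.37 (SE), with an adjusted p of 0.31 in edgeR and 0.0379 in DESeq2. Fbn1, fibrillin-1, was at 36.1, 25.8 and 13.4 CPM in UNx CrePlus libraries, against 10.6, 15.4 and 21.1 CPM in UNx CreMinus libraries. Fbln5, fibulin-5, was at 140.0, 159.6 and 109.8 CPM in UNx CrePlus libraries and 104, 124 and 172 CPM in UNx CreMinus libraries. Fbn1 and Fbln5 overlapped, with log2 fold changes of 0.68 ± 0.50 (SE) and 0.033 ± 0.38 (SE). Eln, elastin, had 0.35 and Fbln2, a further fibulin, -0.079.

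All 3 crosslinking enzymes, amine oxidases that join collagen and elastin chains, had a higher mean in UNx CrePlus kidneys. Lox was at 11.03, 7.24 and 3.18 CPM in UNx CrePlus libraries and 2.34, 4.05 and 4.21 CPM in UNx CreMinus libraries. Loxl2, which acts on type IV collagen among others, was at 39.01, 28.2 and 20.7 CPM in UNx CrePlus libraries, against 15.6, 20.8 and 25.5 CPM in UNx CreMinus libraries. The groups overlapped in both, with log2 fold changes of 1.03 ± 0.55 (SE) for Lox and 0.51 ± 0.42 (SE) for Loxl2, and Loxl1 had 0.39.

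Among the proteases and inhibitors, Mmp2, a gelatinase that cuts type IV and denatured collagen, was at 19.4, 13.9 and 14.2 CPM in UNx CrePlus libraries and 8.13, 6.81 and 11.4 CPM in UNx CreMinus libraries. Mmp14, the membrane protease that activates the Mmp2 precursor, was at 23.7, 18.9 and 12.98 CPM in UNx CrePlus libraries, against 8.00, 10.5 and 13.9 CPM in UNx CreMinus libraries. Mmp2 did not overlap between the groups and Mmp14 did. Their log2 fold changes were 0.86 ± 0.28 (SE) for Mmp2 and 0.78 ± 0.35 (SE) for Mmp14, with adjusted p of 0.373 and 0.463 in edgeR. Timp3 was at 2853, 2811 and 2823 CPM in UNx CrePlus libraries and 2838, 2331 and 2222 CPM in UNx CreMinus libraries, with a log2 fold change of 0.20 ± 0.14 (SE), and Timp2, an inhibitor that also helps to activate Mmp2, had 0.37.

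**Figure D2:**
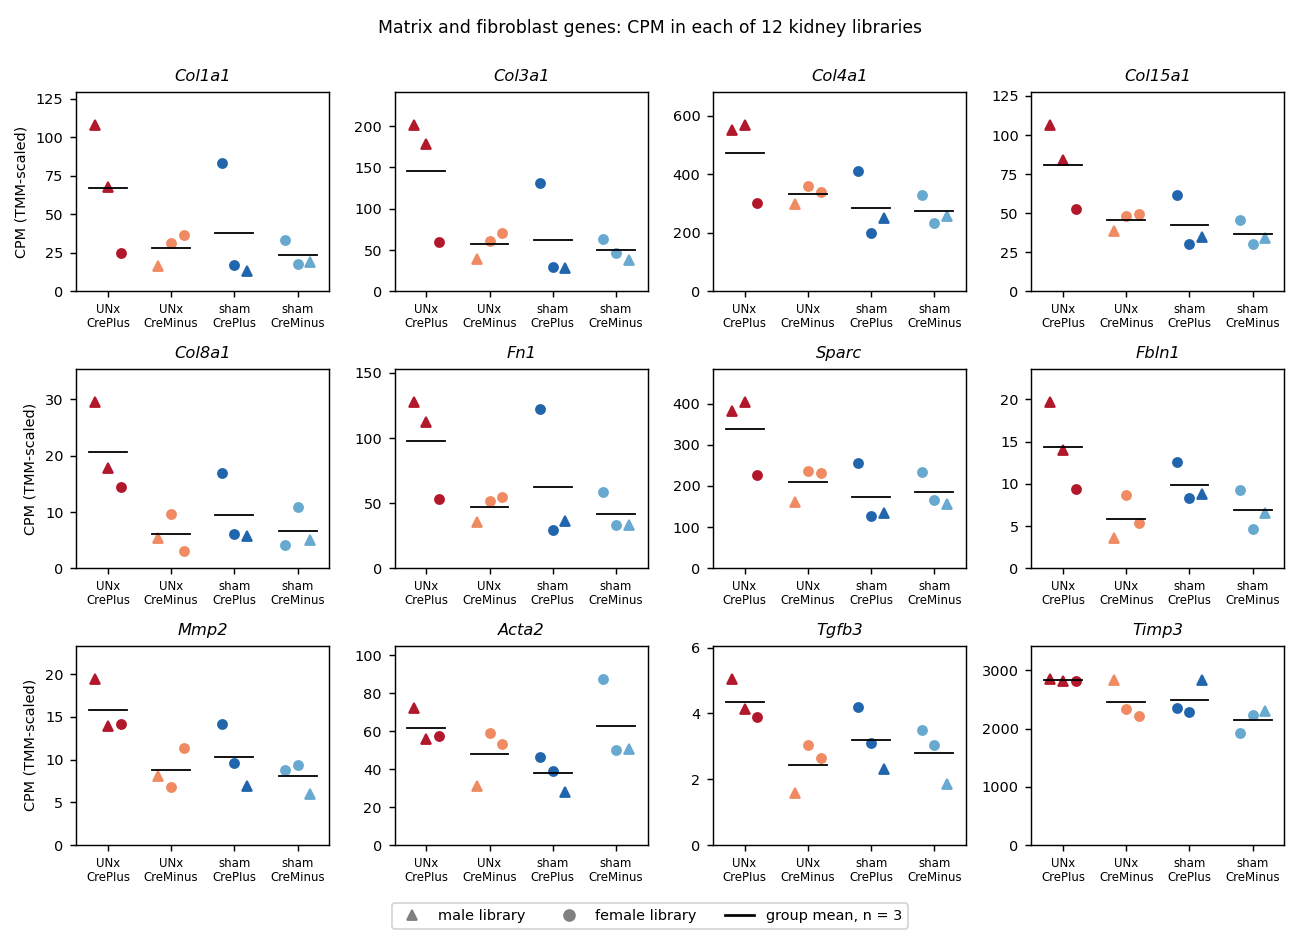
CPM on the vertical axis, from 0, of 12 members in each library by group. Triangles are male libraries, circles female ones, and lines are group means. In Col1a1, Col3a1, Col4a1, Fn1 and Sparc the male UNx CrePlus libraries lie high and the female one among the UNx CreMinus libraries, in Col8a1, Fbln1, Mmp2, Tgfb3 and Col15a1 all 3 UNx CrePlus libraries lie above the UNx CreMinus ones, and sham CrePlus replicate 1 is the highest sham library for most of the genes.

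The cytoskeletal genes mark myofibroblasts and the smooth muscle of vessels. Vim, the intermediate filament of mesenchymal cells, was at 76.4, 63.4 and 46.5 CPM in UNx CrePlus libraries and 36.96, 50.7 and 44.4 CPM in UNx CreMinus libraries. Acta2, smooth muscle actin, was at 72.4, 55.9 and 57.4 CPM in UNx CrePlus libraries, against 31.1, 59.3 and 53.1 CPM in UNx CreMinus libraries. Tagln, the actin-binding protein transgelin, was at 63.7, 64.3 and 40.6 CPM in UNx CrePlus libraries and 32.2, 51.6 and 44.8 CPM in UNx CreMinus libraries. All 3 overlapped between the groups, and the log2 fold changes were 0.50 ± 0.26 (SE) for Vim, 0.37 ± 0.28 (SE) for Acta2 and 0.39 ± 0.31 (SE) for Tagln. The PDGF receptors, through which PDGF drives fibroblasts and pericytes to divide, had small fold changes beside their error. Pdgfra was at 34.4, 26.5 and 20.3 CPM in UNx CrePlus libraries, against 15.6, 15.8 and 30 CPM in UNx CreMinus libraries. Pdgfrb was at 64.8, 51.6 and 44.9 CPM in UNx CrePlus libraries and 35, 46.5 and 67.8 CPM in UNx CreMinus libraries. The log2 fold changes were 0.41 ± 0.37 (SE) for Pdgfra and 0.11 ± 0.35 (SE) for Pdgfrb, each about the size of its SE or smaller.

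The TGF-beta ligands had fold changes of both signs. Tgfb3 was at 5.05, 4.13 and 3.89 CPM in UNx CrePlus libraries and 1.59, 3.04 and 2.63 CPM in UNx CreMinus libraries, without overlap, and its log2 fold change was 0.86 ± 0.31 (SE) with an adjusted p of 0.391 in edgeR. Tgfb1, the ligand best known in kidney scarring, was at 16.99, 17.4 and 11.9 CPM in UNx CrePlus libraries, against 8.26, 13.5 and 11.9 CPM in UNx CreMinus libraries, which overlapped. Its log2 fold change was 0.46 ± 0.33 (SE). Tgfb2 had the lowest fold change of the 45 genes, -0.90 ± 0.64 (SE), and was at 3.64, 2.98 and 3.78 CPM in UNx CrePlus libraries and 2.37, 5.93 and 11.3 CPM in UNx CreMinus libraries, where replicate 3 alone stood far above the rest.

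Between sham CrePlus and sham CreMinus kidneys, 18 of the 45 genes had a higher mean and 27 a lower one, with a median log2 fold change of -0.08. None passed the adjusted threshold in edgeR, where the lowest adjusted p was 1, nor in DESeq2, and 0.0267% of all genes passed in edgeR. At an unadjusted p under 0.05, 2 of the 45 were lower, Acta2 and Tagln, against 1.4% of all genes, and 0 were higher. The count of lower members rested on single libraries. It was 0 without sham CreMinus replicate 1 or sham CrePlus replicate 3, and 1 without sham CrePlus replicate 2. It was 4 without sham CreMinus replicate 3 and 10 without sham CrePlus replicate 1. With all libraries, Acta2 and Tagln were also the members whose groups did not overlap, against 3.49% of all genes for lower, and 0 members were higher without overlap, against 4.66% of all genes. Tagln was at 37.6, 27.6 and 19.96 CPM in sham CrePlus libraries, against 72.6, 38.2 and 39.3 CPM in sham CreMinus libraries, a log2 fold change of -0.82 ± 0.31 (SE). Acta2 was at 46.5, 38.97 and 28.2 CPM in sham CrePlus libraries and 87.7, 49.98 and 50.8 CPM in sham CreMinus libraries, a log2 fold change of -0.73 ± 0.29 (SE). Sham CreMinus replicate 1 was the highest of the 12 libraries in both genes. The 8 markers of mural and smooth muscle cells, which include neither gene, summed to 175, 148 and 120 CPM in sham CrePlus libraries and 248, 157 and 147 CPM in sham CreMinus libraries. Of these, 1 of 7 tested was higher, the median log2 fold change was -0.34, and their part in the result was not tested.

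Sham CrePlus replicate 1 set most of the level of its group. Col3a1 was at 131, 29.2 and 27.9 CPM in sham CrePlus libraries, against 63.5, 47.1 and 38.3 CPM in sham CreMinus libraries. Fn1 was at 123, 29.8 and 35.97 CPM in sham CrePlus libraries and 58.7, 33.6 and 32.9 CPM in sham CreMinus libraries. In both genes sham CrePlus replicate 1 was above all 3 sham CreMinus libraries, while the other 2 were below all of them for Col3a1 and within or below their range for Fn1. Without sham CrePlus replicate 1, the median log2 fold change of the 45 genes was -0.62, 3 of 45 had a higher mean and 10 were lower at an unadjusted p under 0.05, while none passed the adjusted threshold in edgeR. The median turned to 0.08 without its replicate 2, 0.13 without its replicate 3 and 0.15 without sham CreMinus replicate 1, and it was 0.07 in female libraries.

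**Figure D3:**
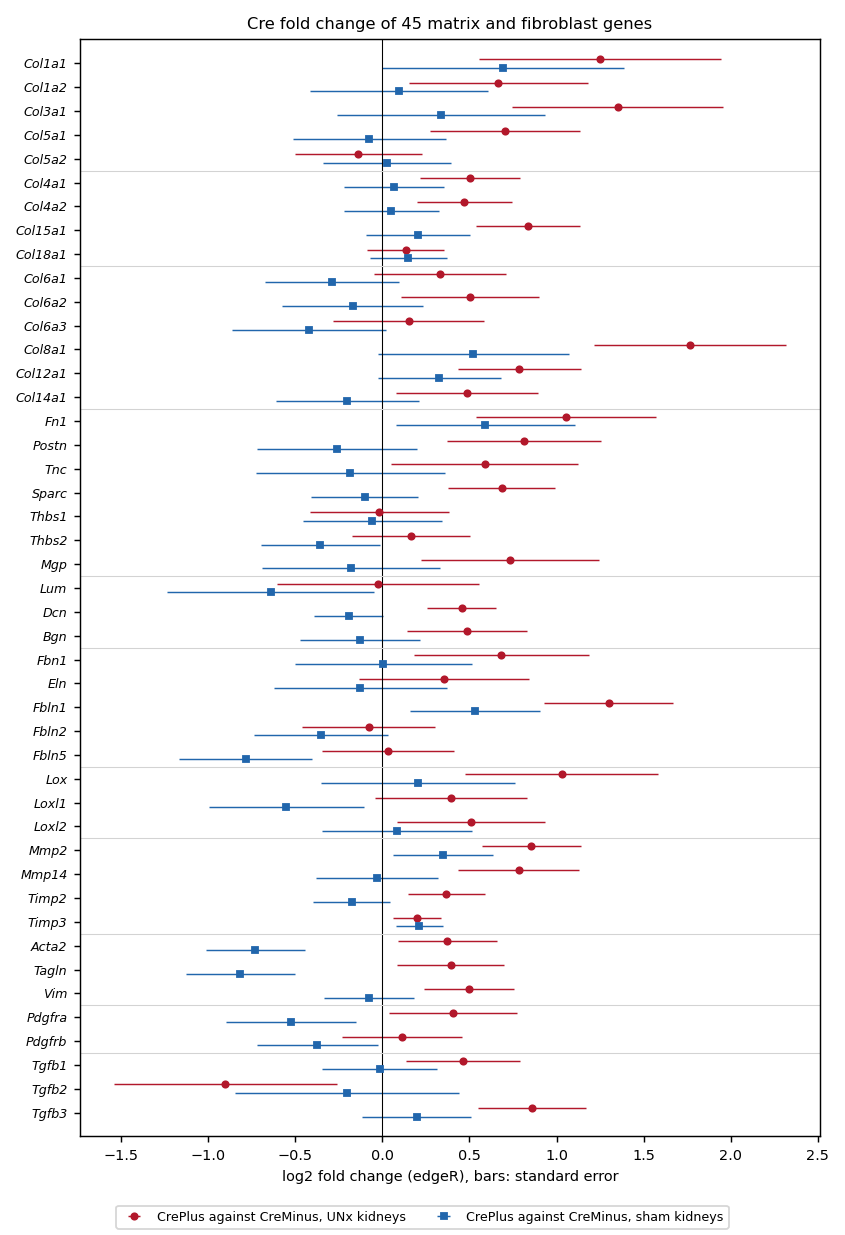
Log2 fold change of CrePlus against CreMinus for each of the 45 genes, in UNx kidneys (red circles) and sham kidneys (blue squares), with bars of 1 standard error and grey lines between roles. In UNx kidneys 40 of 45 points lie right of 0, and in sham kidneys 18 of 45 do.

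The interaction, the Cre difference in UNx kidneys minus that in sham kidneys, was positive for 41 of the 45 genes, with a median of 0.62 on the log2 scale. None passed the adjusted threshold in edgeR, 0% of all genes did, and the lowest adjusted p was 1. At an unadjusted p under 0.05, 3 members were positive (Tagln at 1.21, Acta2 at 1.10 and Dcn at 0.65), against 1.14% of all genes, and DESeq2 called none. Without sham CrePlus replicate 1 that count was 27 and the median 1.08. With another library left out the count was 1 to 5 and the median 0.37 to 0.79. In female libraries the median was -0.17, with 16 of 45 positive and 0 at an unadjusted p under 0.05.

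Averaged over surgery, the Cre difference had a median of 0.21 over the 45 genes, with 32 higher and 13 lower. The median turned to -0.04 without sham CrePlus replicate 1, with 20 of 45 higher, and was -0.14 in female libraries, with 17 higher. None passed in edgeR, where 0.521% of all genes did, and 7 members were higher at an unadjusted p under 0.05, against 6.71% of all genes. That count was 3 when the library dropped was sham CreMinus replicate 3 or the first of either CrePlus group, 4 without UNx CreMinus replicate 1 or sham CreMinus replicate 2, and 11 without UNx CrePlus replicate 3. DESeq2 called 1 member, Fbln1 (0.92, adjusted p 0.0256), and 2.42% of the genes to which it gave an adjusted p.

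Between UNx CrePlus and sham CrePlus kidneys, 43 of the 45 genes had a higher mean and 2 a lower one, and the median log2 fold change was 0.71, against -0.01 over all genes. None passed the adjusted threshold in edgeR (lowest adjusted p 0.692) or in DESeq2, and 0% of all genes passed in edgeR. At an unadjusted p under 0.05, 14 members were higher in edgeR, against 4.15% of all genes, and 21 in DESeq2. No share over all genes was worked out for the DESeq2 count or for the counts with a library left out. The edgeR count was 3 when UNx CrePlus replicate 1 was left out, 8 for its replicate 2, 34 for sham CrePlus replicate 1, 4 for its replicate 2 and 3 for its replicate 3. It was 8 in a fit of these 2 groups alone. Dropping sham CrePlus replicate 1 gave a median of 1.17, and dropping its replicate 3 or the first of UNx CrePlus gave 0.44. The median was 0.01 in female libraries, where 23 of 45 were higher. Every UNx CrePlus library was above every sham CrePlus library for 4 members (Acta2, Dcn, Postn and Tagln), against 4.73% of all genes, and below for 0, against 5.05% of all genes. Postn was at 4.03, 2.71 and 2.11 CPM in UNx CrePlus libraries and 1.91, 1.34 and 1.14 CPM in sham CrePlus libraries, and Tagln at 63.7, 64.3 and 40.6 CPM in UNx CrePlus libraries, against 37.6, 27.6 and 19.96 CPM in sham CrePlus libraries. Sparc was at 383, 404 and 227 CPM in UNx CrePlus libraries and 255, 127 and 135 CPM in sham CrePlus libraries, which overlapped through sham CrePlus replicate 1, with a log2 fold change of 0.97 ± 0.31 (SE). This comparison shares its UNx CrePlus libraries with the Cre comparison in UNx kidneys. All 3 UNx CrePlus libraries were deeper than the sham CrePlus ones, so depth and surgery cannot be told apart within these libraries. With a term for depth, which rests on the 1 deep UNx CreMinus library, the median was 1.34.

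Between UNx CreMinus and sham CreMinus kidneys, 26 of the 45 had a higher mean and 19 a lower one, and the median log2 fold change was 0.12, against 0.00466 over all genes. This direction rests on single libraries. The median turned to -0.11 without UNx CreMinus replicate 3, with 14 higher, and to -0.07 without sham CreMinus replicate 3, with 18 higher. It was 0.28 without UNx CreMinus replicate 1, with 37 higher, and 0.21 without sham CreMinus replicate 1, with 36 higher. The fold changes of the 45 genes ran from -0.43 for Tnc to 0.47 for Loxl2. None passed the adjusted threshold in edgeR or DESeq2, 0% of all genes did in edgeR, and 0 members were higher at an unadjusted p under 0.05, against 0.668% of all genes. Loxl2 was at 15.6, 20.8 and 25.5 CPM in UNx CreMinus libraries and 19.8, 10.6 and 14.03 CPM in sham CreMinus libraries. Tnc was at 3.04, 5.98 and 6.03 CPM in UNx CreMinus libraries, against 7.33, 6.15 and 6.64 CPM in sham CreMinus libraries, and was the only member without overlap: lower for 1 of 45, against 2.19% of all genes, and higher for 0, against 2.67%. Averaged over Cre status, the difference between UNx and sham kidneys had a median of 0.38, with 40 of 45 higher. None passed in edgeR, as 0% of all genes did, nor in DESeq2, and 7 members were higher at an unadjusted p under 0.05 in edgeR, against 3.25% of all genes. That count was 25 without sham CrePlus replicate 1, 12 without sham CreMinus replicate 1 and 11 without UNx CrePlus replicate 3. It was 1 or 2 when the library dropped was UNx CreMinus replicate 2, replicate 1 or 2 of UNx CrePlus, sham CrePlus replicate 2 or 3, or sham CreMinus replicate 2 or 3, and 3 without UNx CreMinus replicate 3. In female libraries it was 0, with a median of 0.04 and 24 of 45 higher.

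Male and female libraries of the 2 UNx groups stood in opposite order for most members. UNx CrePlus had 1 female library and UNx CreMinus had 1 male library, so sex and a single mouse cannot be told apart there. Most members varied together, so each count below largely restates the level of single libraries. In UNx CrePlus kidneys both male libraries were above the female one for 36 of the 45 genes, against 36.8% of all genes. In UNx CreMinus kidneys the male library was below both female ones for 42 of 45, against 38.7% of all genes. The male library was also below both female ones for 28 of 45 in sham CrePlus kidneys, against 37.6% of all genes, and for 26 of 45 in sham CreMinus kidneys, against 39.2% of all genes. The UNx CrePlus mice were thus the only group in which the males were mostly higher. In a fit with a term for sex, the male minus female term had a median of -0.29 over the 45 genes, and 42 were lower in males, against 54.1% of all genes. It passed the adjusted threshold in edgeR for 2 members, Lum (-1.22, adjusted p 0.0129) and Tgfb2 (-1.39, adjusted p 0.0132), and for 20.4% of all genes.

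The Cre difference in UNx kidneys was set out within each sex. Among female libraries, 1 UNx CrePlus against 2 UNx CreMinus, the median log2 fold change of the 45 genes was -0.16 and 12 were higher. Among male libraries, 2 UNx CrePlus against 1 UNx CreMinus, it was 1.125 and all 45 were higher. In the male libraries alone, a split chosen after the data were seen, edgeR called 26 of 45 members, against 2.6% of the genes tested, in a fit whose spread rests on the pair of UNx CrePlus males alone and assumes that the lone males of the other groups vary like them. The same fit called 33 members for UNx in CrePlus kidneys, against 3.53% of the genes tested, and 13 for UNx averaged over Cre status, against 0.874%. It called 11 for the interaction, against 0.735%, and 3 for Cre averaged over surgery, against 0.95%. Col3a1 had a log2 fold change of 2.26 in males and -0.15 in females, Col1a1 2.40 in males and -0.44 in females, and Fn1 1.78 in males and 0.0042 in females. For members without overlap a positive sign in both sexes follows from how they were picked, and only their sizes are given, with Col8a1 at 2.14 in males and 1.18 in females, Mmp2 at 1.05 in males and 0.65 in females, and Fbln1 at 2.24 in males and 0.42 in females.

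A direct test of the difference between sexes, in a fit with 8 means for group and sex, called none of the 45 genes and 0 of all genes in edgeR, with 0.958 as the lowest adjusted p of a member. The difference, male minus female, was positive for 44 of 45, with a median of 1.24, against -0.00184 over all genes. At an unadjusted p under 0.05, 22 of the 45 genes differed, all positive, against 4.79% of all genes in either direction. The male UNx CreMinus library, which serves as the male control for all of these values, was among the lowest of the 12 for many members, and was the lowest for 7. It was also the only deep library of its group, so sex and depth cannot be told apart there.

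Other genes of the matrix pathways, given from lists of their own, also had no member that passed in the UNx comparison in edgeR. Of 22 genes of the TGF-beta pathway 14 had a higher mean in UNx CrePlus than in UNx CreMinus kidneys, with a median log2 fold change of 0.19. At an unadjusted p under 0.05 in edgeR, 4 of the 22 were higher, against 6.15% of all genes, and 1 was lower, against 678 of all 14970 genes. Tgfbr2, the receptor that binds the ligands, was at 152, 159 and 129 CPM in UNx CrePlus libraries and 112, 101 and 88.9 CPM in UNx CreMinus libraries, without overlap (0.54 ± 0.12 (SE), adjusted p 0.195). Smad4, the shared partner of the receptor-activated SMAD proteins, was at 70.95, 66.2 and 65.1 CPM in UNx CrePlus libraries, against 56.6, 55.4 and 48.3 CPM in UNx CreMinus libraries, without overlap (0.34 ± 0.084 (SE), adjusted p 0.235). That the female UNx CrePlus library was also above the UNx CreMinus ones follows from the lack of overlap, in genes named for their small p.

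Of 14 tested genes for collagen processing 13 had a higher mean in UNx CrePlus kidneys, with a median of 0.16. Pcolce2, an enhancer of procollagen cleavage, was the exception, at 1.34, 1.13 and 2.04 CPM in UNx CrePlus libraries and 2.91, 4.83 and 7.45 CPM in UNx CreMinus libraries. In sham kidneys it was at 2.20, 2.29 and 1.19 CPM in CrePlus libraries, against 7.29, 6.91 and 3.32 CPM in CreMinus libraries. Averaged over surgery it fell by 1.68 on the log2 scale with Cre, with an adjusted p of 0.039 in edgeR, and was the only gene of these lists that passed in any comparison, where 0.521% of all genes passed. Adamts2, which cuts the amino end off procollagen, was at 14.7, 10.3 and 5.52 CPM in UNx CrePlus libraries and 3.09, 5.84 and 6.13 CPM in UNx CreMinus libraries (1.03 ± 0.43 (SE)).

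Of 14 laminin and other basement membrane genes 12 had a higher mean in UNx CrePlus kidneys, with a median of 0.22. Lamc1, the gamma chain of most laminins, was at 104, 89.1 and 86.4 CPM in UNx CrePlus libraries, against 64.5, 68.8 and 64.5 CPM in UNx CreMinus libraries (0.50 ± 0.13 (SE)), and Lama4, of vessel laminins, at 14.1, 15.7 and 13.5 CPM in UNx CrePlus libraries and 10.98, 10.7 and 9.83 CPM in UNx CreMinus libraries. Neither overlapped between the groups. Of 8 tested matrix proteases and inhibitors 7 had a higher mean, with a median of 0.63. Timp1, an inhibitor made on injury, was at 7.18, 5.04 and 0.412 CPM in UNx CrePlus libraries, against 0.232, 0.874 and 0.253 CPM in UNx CreMinus libraries, and Adamts4, a protease of proteoglycans, at 4.01, 3.22 and 1.69 CPM in UNx CrePlus libraries and 1.00, 1.29 and 1.32 CPM in UNx CreMinus libraries. Timp1 was high in the males and not in the female UNx CrePlus library, and sham CrePlus replicate 1 had 3.22 CPM.

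All 4 PDGF ligands had a higher mean in UNx CrePlus kidneys, with a median of 0.23, and none differed at an unadjusted p under 0.05. Pdgfc had a log2 fold change of 0.27 ± 0.18 (SE) and Pdgfa 0.13 ± 0.12 (SE). Of 7 receptors for collagen and fibronectin 6 had a higher mean, with a median of 0.32. Itgb1, the common beta chain of integrins that bind them, was at 375, 421 and 358 CPM in UNx CrePlus libraries, against 319, 330.3 and 287 CPM in UNx CreMinus libraries (0.30 ± 0.10 (SE)), and Cd44, a receptor for hyaluronan, at 5.72, 5.81 and 2.31 CPM in UNx CrePlus libraries and 1.67, 1.84 and 1.98 CPM in UNx CreMinus libraries (1.34 ± 0.49 (SE)). Both were without overlap.

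Markers of other cells moved with some of the same libraries. The 10 macrophage markers summed to 253.5, 270.1 and 143.0 CPM in UNx CrePlus libraries and 129 to 149 CPM in UNx CreMinus libraries, with 9 of 10 higher and a median log2 fold change of 1.15. In sham CreMinus replicate 3 they summed to 309 CPM, the highest of all, while its mean level of the 45 genes was -0.39. The 7 proliferation markers summed to 192, 206 and 84.3 CPM in UNx CrePlus libraries and 59.7 to 115 CPM in UNx CreMinus libraries, with 7 of 7 higher. The 8 markers of injured tubule summed to 2506 to 3897 CPM in UNx CrePlus libraries and 1192 to 3559 CPM in UNx CreMinus libraries, with 7 of 8 higher. Most of that sum was Spp1, at 716 to 3554 CPM over the 12 libraries, while Havcr1, Lcn2 and Krt20 reached at most 121, 24.1 and 2.06 CPM. The 7 markers of distal tubule and loop of Henle summed to 7403, 7878 and 11130 CPM in UNx CrePlus libraries, against 11820 to 12500 CPM in UNx CreMinus libraries, with 0 of 7 higher. No marker of these 4 lists was called in edgeR, and their part in the result was not tested.

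Markers of the cells that make matrix showed smaller differences. The 10 fibroblast markers outside the 45 genes summed to 111 to 129.9 CPM in UNx CrePlus libraries and 80.4 to 107 CPM in UNx CreMinus libraries, with 7 of 8 tested markers higher and a median log2 fold change of 0.19. Much of this sum was Cd34, at 26.9 to 64.0 CPM over the 12 libraries, and Tcf21, at 12.7 to 32.1 CPM. Dpt, Gli1, Fap and Twist2 reached at most 2.16, 1.30, 0.445 and 0.255 CPM, so the sum says little about them. The 8 markers of mural and smooth muscle cells summed to 139 to 183 CPM in UNx CrePlus libraries and 111 to 203 CPM in UNx CreMinus libraries, with 4 of 7 tested markers higher. The 8 endothelial markers summed to 555 to 632 CPM in UNx CrePlus libraries and 498 to 560.1 CPM in UNx CreMinus libraries. The 6 podocyte markers all had a lower mean and summed to 398 to 728 CPM in UNx CrePlus libraries and 548 to 795 CPM in UNx CreMinus libraries. Adipocyte markers summed to at most 1.01 CPM in 11 libraries and to 17.2 CPM in sham CrePlus replicate 3, the library lowest in the 45 genes.

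**Figure D4:**
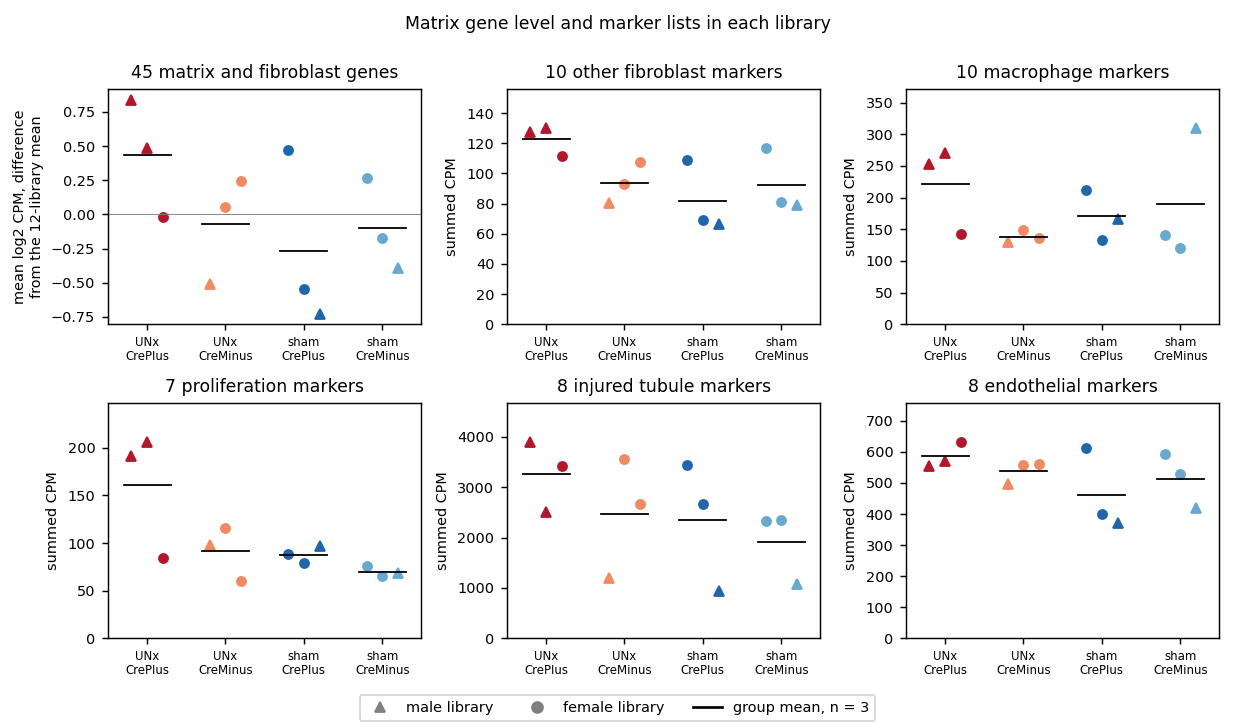
The first panel shows the mean log2 CPM difference of the 45 genes from their 12-library mean, and the others the summed CPM of marker lists from 0, for each library by group (triangles male, circles female, lines group means). The male UNx CrePlus libraries are high for the 45 genes, macrophages and proliferation, and the macrophage sum of sham CreMinus replicate 3 is the highest of the 12, at 309 CPM.

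The authors' deposited table for UNx CrePlus against UNx CreMinus called 4 of the 45 genes at an adjusted p under 0.05, and 1.84% of its genes with an adjusted p. They were Col8a1 (log2 fold change 0.95 ± 0.23 SE, adjusted p 0.00362), Mmp2 (0.67 ± 0.19, adjusted p 0.027), Fbln1 (0.77 ± 0.22, adjusted p 0.0319) and Col3a1 (0.76 ± 0.22, adjusted p 0.0417) in the authors' deposited table. That table gave 40 of the 45 genes a positive fold change, and its fold changes are smaller than those fitted here. For sham CrePlus against sham CreMinus, the authors' deposited table called 0 members and 0.216% of its genes. A second version of the authors' deposited table, which leaves out sham CrePlus replicate 1, called Tnc (-0.77 ± 0.18 SE, adjusted p 0.00951) and 0.309% of its genes. In that version of the authors' deposited table, positive fold changes were given for 3 of the 45 genes, against 18 with all 6 libraries. For UNx CrePlus against sham CrePlus, the authors' deposited table called 0 members and 15 of 12633 genes with an adjusted p. For UNx against sham over all 12 libraries, it called 0 members and 5 of 14854 such genes. A second version of that comparison called 0 members and 14 of 12895 genes.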

How the data were processed

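RNA-seq was measured in 12 kidney libraries, 3 per group, with groups taken from the sample labels. Library totals were 18914300 to 22480895 counts in 8 libraries and 41699032 to 42785476 in 4. Each deposited table listed raw read counts as whole numbers by gene, and 0 rows named no gene. They also held the authors' mean of scaled counts (a signal per gene), log2 fold changes with their standard errors, a test statistic (a score), and the authors' p-values and adjusted p-values. The submitters' processing notes name HTSeq, DESeq2, cutadapt 1.11 and FastQC 0.11.5 and the builds mm10 and GRCm38. No label or header names the aligner, the annotation or the strand setting. Per the labels' protocols, cDNA libraries came from the SMART-Seq v4 kit, and that kit does not mark strand. The 6 tables shared their libraries, and 35 of 35 recurring columns were identical. Of 24067 rows, 5 repeated symbols were kept once.

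The counts were tested with edgeR 4.0.16 in R 4.3.3 (filterByExpr, 14970 genes kept, TMM factors from 0.925 to 1.05). glmQLFit and glmQLFTest were run on 12 libraries with 4 group means, and p-values were Benjamini-Hochberg adjusted over all genes tested, with 0.05 as the threshold. SE is the absolute log2 fold change over the root of the F statistic. DESeq2 1.42.0 was an alternative. The code was tested on simulated data. Nothing beyond separate sample labels says that the libraries are independent, and the spread behind a p-value may in part be technical. Reads without molecular identifiers are not independent molecules.

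The 45 members, their roles, the other lists and the tests were chosen with earlier results of these data known. In each role the 2 members of smallest p for Cre in UNx kidneys and the member of highest mean CPM were named with every library, and so were any called member and those of the largest fold change for Cre in sham kidneys and for UNx in CreMinus kidneys. Of each other list, the called genes or the 2 of smallest p were named. Other genes named, such as Postn and Tnc, were chosen after their values were seen. Sequences are RefSeq windows before the start for fibrillar collagens and cytoskeletal genes, without bases inside the gene. Transcript lengths came from GENCODE M21. Alternatives were DESeq2 and its size factors, no filter on low counts, leaving out each library, only the groups compared, terms for sex or depth, and female or male libraries only. The split into male libraries and the test of the sex difference were chosen after seeing the data. Counts of members at an unadjusted p in the alternatives have no share over all genes beside them. A change in such a count may therefore hold for all genes alike.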

Additional observations from a re-analysis of the deposited data

How the results depend on the processing

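In edgeR, no member was called in any of the 7 comparisons with other size factors, without the low-count filter, with 1 library left out, with terms for sex or depth, or in female libraries, nor with only the groups compared in the 4 comparisons between a pair of groups. The other 3 comparisons already use all 4 groups. DESeq2 called 1 member, Fbln1, for Cre in UNx kidneys and 1, again Fbln1, for Cre averaged over surgery. In male libraries only, chosen after the data were seen, 26 members were called for Cre in UNx kidneys, 33 for UNx in CrePlus kidneys, 13 for UNx averaged over Cre status, 11 for the interaction and 3 for Cre averaged over surgery. The cause was not tested, and that fit has 1 residual degree of freedom. The median log2 fold change for Cre in UNx kidneys was 0.98 with a term for depth and 0.60 with a term for sex. The term for sex assumes the same sex difference in every group. The median was -0.16 in female libraries, 1.125 in male libraries, and 0.30 to 0.69 with 1 library left out. For Cre in sham kidneys it was -0.62 to 0.15 with 1 library left out. In female libraries, where UNx CrePlus has 1 library, 12 of the 45 genes were higher for Cre in UNx kidneys, against 40 in all libraries. Of the members named by the rule above, the fold change turned negative for Bgn (-0.14), Col14a1 (-0.14), Col1a1 (-0.44), Col1a2 (-0.53), Col3a1 (-0.15), Col4a1 (-0.21), Fbln5 (-0.42), Fbn1 (-0.43), Lox (-0.37), Loxl2 (-0.16), Pdgfra (-0.16), Pdgfrb (-0.34), Sparc (-0.042), Tagln (-0.24), Tgfb1 (-0.094) and Vim (-0.024). Members outside that rule turned as well, such as Tnc (-0.81) and Eln (-0.68). The cause was not tested. Timp3 was at -0.0047 with a term for depth. With 1 library left out, Fbln5 ran from -0.12 to 0.25 and Pdgfrb from -0.088 to 0.39. No paired analysis was possible because the labels name no pairs of libraries. With the smallest count of a member at 8 reads in a library, the depth limits the least expressed members most, among them Lum, Postn and Tgfb3.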
